A study of Mus musculus with 4 samples.

Results

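The 45 genes described here encode lysosomal hydrolases and membrane proteins, together with progranulin (*Grn*), which is processed in the same organelle, and *Tfeb*, a transcription factor of lysosomal genes. They were listed by gene name and role, with earlier results of these data known but no measured value in the rule, and all 45 were found among the 33981 genes of the joined count tables. The assay was RNA sequencing after poly(A) selection, applied to a coronal brain section that held the prefrontal cortex. The mice were male C57BL/6J animals aged 3–5 months, in 4 groups of 6 libraries that were each taken as 1 mouse. NT (normotensive) mice received vehicle and HT (hypertensive) mice angiotensin II by infusion for 28 days, the latter at a daily dose of 0.28 mg/kg. On day 7 they underwent sham surgery or photothrombosis, in which light activates a dye to block vessels of the prefrontal cortex, and tissue was taken on day 28. The sham groups are written NT + Sham and HT + Sham, and the groups with photothrombosis NT + Stroke and HT + Stroke. The labels describe the groups and not single animals, so *P*-values measure the spread between these libraries. The section was homogenized whole, and with such bulk RNA fewer cells of a type and less RNA per cell cannot be told apart.

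Lysosomes are acidic compartments in which hydrolases break down proteins, glycans, sulfated sugars and lipids that arrive by endocytosis, phagocytosis and autophagy. Most of the hydrolases are targeted there by mannose phosphate tags, are activated by low pH, and act beneath a membrane rich in heavily glycosylated proteins such as LAMP1 and LAMP2. Phagocytes, including the microglia that clear debris after brain injury, are rich in lysosomes, and inherited loss of many of these enzymes causes storage disease of the nervous system.

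Sequencing depth was 15922919 to 24865998 counts per library. Some libraries stood apart from their groups in genes outside the 45. *Gfap*, the astrocyte filament protein that rises in reactive astrocytes, was at 249 and 231 CPM in HT + Stroke libraries 1 and 6 and at 919 to 1340 CPM in the other 4 of that group. HT + Sham library 6 was at 550 CPM of *Gfap*, against 162 to 242 CPM in the other 5. The tables hold no record of the lesion apart from expression, so whether these 3 libraries match their labels, or held lesioned tissue, was not tested, and this limit applies to every comparison with HT mice. CPM is the count of a gene scaled to library size after TMM adjustment of library sizes. Cortical markers were detected in every library, at a summed level over 6 genes of 496 to 550 CPM in NT + Sham, 324 to 394 CPM in NT + Stroke, 345 to 535 CPM in HT + Sham and 332 to 463 CPM in HT + Stroke, so the NT groups did not overlap. The sums of striatal and olfactory bulb markers varied widely within groups, from 165 to 1830 CPM and from 23.1 to 355 CPM, and the part of the sampled regions in the results was not tested. Results that rest on these libraries are given with and without them.

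The members differed widely in level. On the FPKM scale, which corrects for gene length, *Psap*, the precursor of the saposins that present lipids to hydrolases, was the highest in NT + Sham at 682 ± 37.6 FPKM (SD, n = 6). *Ctsd*, the main aspartic protease of the lysosome, followed at 124 ± 9.60 FPKM, and its 6 values, 113 to 137 FPKM, lay below all 6 of *Psap*. The cysteine protease *Ctsb* and the membrane glycoprotein *Lamp1* were both at 102 FPKM, with ranges of 95.9 to 108 and 97.2 to 106 FPKM that overlapped. *Gaa*, acid alpha-glucosidase, at 90.6 FPKM, and *Ids*, iduronate sulfatase, at 71.2 FPKM came next. At the other end were *Ctsc* at 1.08 FPKM and *Atp6v0d2*, a subunit of the proton pump best known from osteoclasts, at 0.0128 FPKM. The median over the members was 13.2 FPKM, above the 3.83 FPKM of all genes tested, and 34 of the 45 lay above that level. After stroke in NT mice the order of mean FPKM shifted, with *Ctss* moving from rank 7 to 3, *Ctsz* from 11 to 7, *Cd68* from 28 to 12 and *Ids* from 6 to 9.

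The promoters of the members are shown because many lysosomal genes are known to share an E-box element bound by the factor that *Tfeb* encodes. RefSeq promoter windows on GRCm38.p6, from 250 bases before to 50 bases after each start, were matched by symbol for 40 of the 45 members, all but *Ctsb*, *Ctsh*, *Asah1*, *Npc1* and *Atp6v0d2*. The 8-base palindrome TCACGTGA, which reads the same on both strands, was present in windows of 4 of these 40 (*Ctsd*, *Ctsa*, *Gla* and *Mcoln1*), or 10%, and of 304 of all 27025 genes, or 1.12%. The 6-base core CACGTG, which every TCACGTGA contains, was present in 12 of 40 members (30%) and in 8.09% of all genes. Among 74 other lysosomal and autophagy genes with a window, from the second list described below, 13.5% held TCACGTGA and 24.3% CACGTG. The 2 elements were thus not particular to the members. The stretches around each TCACGTGA that lies before the start are given 5′ to 3′ on the strand of the gene, with the element in capitals. *Ctsa* holds a further copy from position 5 after the start, in the transcribed part, which is not shown.
Ctsd: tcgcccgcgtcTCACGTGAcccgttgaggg
Ctsa: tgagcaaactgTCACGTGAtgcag
Gla, upstream element: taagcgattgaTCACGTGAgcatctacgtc
Gla, downstream element: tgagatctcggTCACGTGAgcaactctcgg
Mcoln1: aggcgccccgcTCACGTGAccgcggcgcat
The *Ctsd* stretch lies at chr7:142387908-142387937 (minus strand), with the first base of the element at position -99 from the start. The *Ctsa* stretch lies at chr2:164833749-164833772 (plus strand, element from -13), and that of *Mcoln1* at chr8:3500462-3500491 (plus strand, element from -46). *Gla* holds the element at chrX:134601215-134601244 and chrX:134601182-134601211 (minus strand, from -228 and -195). In GENCODE M21 the *Ctsd*, *Ctsa* and *Mcoln1* stretches overlap an annotated exon of the same gene, and both *Gla* stretches overlap an exon of *Hnrnph2*, the neighbour transcribed the other way. A match describes letters in a window and is not a measured binding site.

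The first comparison asked what stroke did without hypertension. In NT + Stroke vs NT + Sham, 31 of the 45 members were higher, 1 was lower (*Ids*) and 13 did not pass an adjusted *P* under 0.05 in edgeR's quasi-likelihood test. Of all 16835 genes tested, 14.4% were higher and 11.5% lower. The median log2 fold change of the members was 0.42, against -0.01 for all genes tested, and 39 of 45 members had a positive value, against 48.0% of all genes. In 25 members every NT + Stroke mouse lay above every NT + Sham mouse, and in 1 every mouse lay below, where 7.78% and 5.74% of all genes tested separated in these directions. Together the members took 0.533% to 0.590% of all counts in NT + Sham and 0.693% to 0.925% in NT + Stroke. With no scaling beyond library size, 37 members were higher and 1 lower, and over all genes the calls moved from 2426 higher and 1939 lower to 2987 higher (17.7%) and 1021 lower (6.06%).

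**Figure D1:**
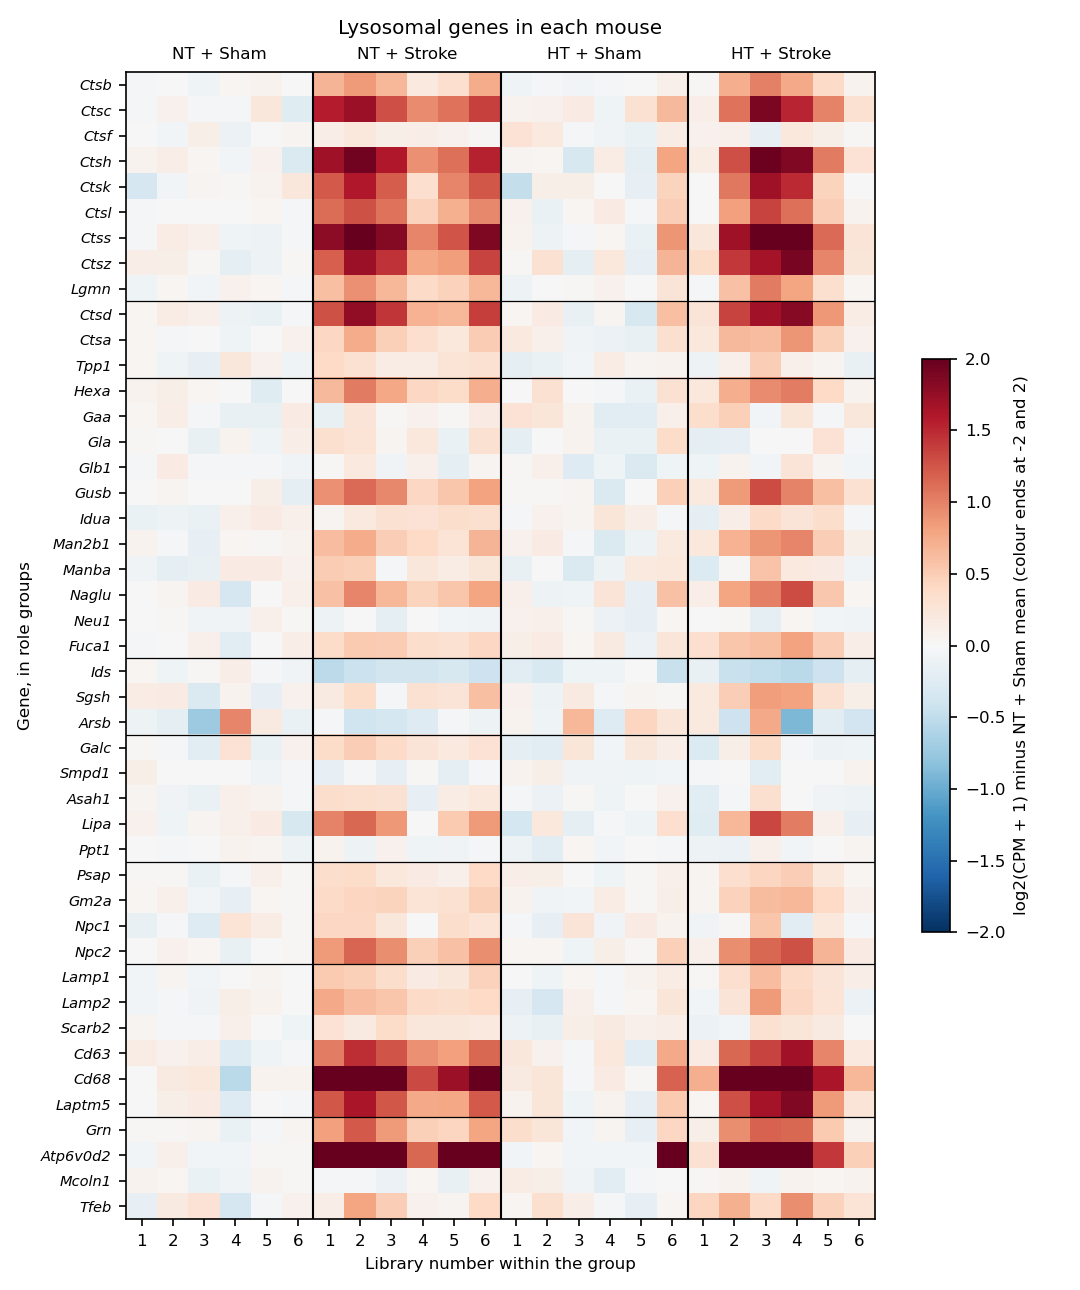
Each row is 1 of the 45 genes and each column 1 mouse, with the library number below. Colour is log2(CPM + 1) minus the NT + Sham mean of that gene, and black lines part the 4 groups and the 8 role groups. *Ctss*, *Ctsh*, *Ctsc*, *Ctsz*, *Cd63*, *Cd68* and *Laptm5* are among the genes that are red in all 6 NT + Stroke mice. Other genes, such as *Ctsb* and *Ctsa*, are pale in some of these mice, and *Ids* is pale blue there. HT + Stroke libraries 1 and 6 are paler than the other 4.

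Of the 9 cysteine proteases 8 were higher, with a median log2 fold change of 1.27. *Ctss* (ENSMUSG00000038642, chr3:95526786-95556403), a cathepsin that keeps its activity at neutral pH and is abundant in microglia, had 62.8, 66.5 and 75.4 CPM (lowest, median and highest) in NT + Sham and 134, 240 and 293 CPM in NT + Stroke. All 6 stroke mice were above all sham mice, and the stroke mice spread over a wider range. On the log2 scale the difference was 1.70 (95% confidence interval 1.33 to 2.07, adjusted *P* = 1.11e-05).
*Ctsh* (ENSMUSG00000032359, chr9:90054152-90076089), an aminopeptidase, ran 12.2, 15.6 and 16.6 CPM in NT + Sham and 29.3, 46.7 and 60.0 CPM in NT + Stroke, again without overlap. This gave a log2 fold change of 1.56 (95% confidence interval 1.22 to 1.90, adjusted *P* = 5.63e-06). *Ctsc* (ENSMUSG00000030560, chr7:88278085-88310888), a dipeptidyl peptidase that activates granule proteases of immune cells, had 5.17, 6.17 and 7.48 CPM in NT + Sham and 13.0, 17.2 and 22.7 CPM in NT + Stroke. Its groups were apart too, and the log2 fold change was 1.47 (95% confidence interval 1.18 to 1.77, adjusted *P* = 4.45e-07), the smallest *P* among the members.
*Ctsk* (ENSMUSG00000028111, chr3:95499256-95509362), known as the collagen-cutting cathepsin of osteoclasts, showed 3.42, 4.78 and 5.54 CPM in NT + Sham and 6.09, 12 and 16 CPM in NT + Stroke. The lowest stroke mouse, library 4, was only just above the highest sham mouse, and the log2 fold change was 1.29 (95% confidence interval 0.89 to 1.70, adjusted *P* = 5.07e-05). *Ctsz* (ENSMUSG00000016256, chr2:174427493-174439039), a carboxypeptidase, had 49.8, 57.9 and 62.6 CPM in NT + Sham and 97.8, 139 and 189 CPM in NT + Stroke, with no overlap. Stroke minus sham on the log2 scale was 1.27 (95% confidence interval 0.95 to 1.59, adjusted *P* = 2.60e-05).
*Ctsl* (ENSMUSG00000021477, chr13:64359337-64370890), an endopeptidase that also trims other cathepsins, had 85.9, 87.0 and 89.1 CPM in NT + Sham and 120, 179 and 211 CPM in NT + Stroke. The sham mice lay within a narrow band and every stroke mouse was above it. The fitted log2 fold change came to 0.97 (95% confidence interval 0.74 to 1.2, adjusted *P* = 4.65e-06). *Lgmn*, the asparaginyl endopeptidase that processes cathepsins, rose by a log2 fold change of 0.63 and *Ctsb* by 0.60, both without overlap between groups. *Ctsf* was the only one of the 9 not called, at a log2 fold change of 0.12 (95% confidence interval 0.00 to 0.24, adjusted *P* = 0.106).

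All 3 aspartic and serine proteases were higher. *Ctsd* (ENSMUSG00000007891, chr7:142375911-142388038), which carries the TCACGTGA element, had 266, 293 and 324 CPM in NT + Sham and 463, 736 and 1000 CPM in NT + Stroke. Libraries 4 and 5 were the lowest of the stroke mice, yet above all sham mice, and the log2 fold change was 1.26 (95% confidence interval 0.88 to 1.64, adjusted *P* = 1.59e-04). *Ctsa*, the protective protein that stabilizes beta-galactosidase and neuraminidase in a complex, rose by a log2 fold change of 0.47 without overlap. Its partners in that complex, *Glb1* and *Neu1*, had log2 fold changes of 0.03 and -0.06 and did not pass the test (adjusted *P* = 0.817 and 0.440). *Tpp1*, a tripeptidyl peptidase whose loss causes childhood ceroid lipofuscinosis, rose by 0.27, with overlapping groups.

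Glycosidases were more mixed, with 6 of 11 higher, none lower and a median log2 fold change of 0.30. *Gusb* (ENSMUSG00000025534, chr5:129989011-130003049), beta-glucuronidase, had 14.2, 16.3 and 17.7 CPM in NT + Sham and 21.9, 30.3 and 36.6 CPM in NT + Stroke. Both groups were apart, and the log2 fold change was 0.85 (95% confidence interval 0.61 to 1.09, adjusted *P* = 1.40e-05). *Naglu*, a heparan sulfate enzyme, rose by a log2 fold change of 0.70, *Hexa*, a subunit of beta-hexosaminidase, by 0.69, *Man2b1*, an alpha-mannosidase, by 0.56, *Fuca1*, alpha-fucosidase, by 0.42 and *Idua*, alpha-iduronidase, by 0.27. The groups overlapped only in *Idua* among these. *Gaa* (0.07), *Gla* (0.19), *Glb1*, *Manba* (0.30) and *Neu1* did not pass the test, with adjusted *P* between 0.0667 for *Manba* and 0.817 for *Glb1*. *Gla* holds 2 copies of the TCACGTGA element in its window.

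Of the 3 sulfatases, *Ids* (ENSMUSG00000035847, chrX:70343069-70365084) was lower. This enzyme, deficient in Hunter syndrome, removes sulfate from heparan and dermatan sulfate. It had 345, 362 and 398 CPM in NT + Sham and 253, 278 and 293 CPM in NT + Stroke, so every stroke mouse was below every sham mouse. The log2 fold change was -0.40 (95% confidence interval -0.52 to -0.28, adjusted *P* = 3.23e-05). The direction of *Ids* was the same under each of the 4 scalings tried, from -0.33 to -0.40 on the log2 scale. *Sgsh*, heparan sulfamidase, was at 0.33 on the log2 scale and did not pass (adjusted *P* = 0.0641). *Arsb*, arylsulfatase B, had -0.31 with a wide spread, from 5.25 to 19.5 CPM within NT + Sham, and did not pass (adjusted *P* = 0.388).

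Lipid hydrolases split likewise, with 2 of 5 higher. *Lipa* (ENSMUSG00000024781, chr19:34492318-34527474), the acid lipase that frees cholesterol from its esters, had 12, 16.1 and 17.3 CPM in NT + Sham and 15.3, 28.5 and 35.0 CPM in NT + Stroke. Stroke library 4, at 15.3 CPM, lay inside the sham range and the other 5 above it. On the log2 scale the difference was 0.80 (95% confidence interval 0.44 to 1.17, adjusted *P* = 0.00219). *Galc*, galactosylceramidase, the enzyme of myelin lipid breakdown, rose by 0.34 on the log2 scale. *Smpd1*, acid sphingomyelinase (-0.08), *Asah1*, acid ceramidase (0.21), and *Ppt1*, palmitoyl thioesterase (-0.02), did not pass, with adjusted *P* of 0.296, 0.0556 and 0.874. The 95% confidence interval of the log2 fold change was -0.21 to 0.04 for *Smpd1* and -0.13 to 0.10 for *Ppt1*, so a change as large as that of *Lipa* lay outside both.

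The 4 lipid activators and cholesterol carriers were all higher. *Npc2* (ENSMUSG00000021242, chr12:84754562-84773152), which binds cholesterol in the lumen and passes it to the membrane protein NPC1, had 69.2, 77.3 and 81.3 CPM in NT + Sham and 107, 142 and 173 CPM in NT + Stroke, without overlap. This gave a log2 fold change of 0.85 (95% confidence interval 0.65 to 1.06, adjusted *P* = 4.35e-06). *Npc1* itself rose by a log2 fold change of 0.29 with overlapping groups. All of the 32 calls but that of *Atp6v0d2* were followed through other settings, and only the call of *Npc1* was lost (adjusted *P* up to 0.072). *Gm2a*, the ganglioside activator, rose by 0.40. *Psap*, the member with the highest level, had 1720, 1900 and 2020 CPM in NT + Sham and 2020, 2280 and 2480 CPM in NT + Stroke, and all stroke mice but library 5 exceeded the highest sham mouse. Stroke minus sham on the log2 scale was 0.27 (95% confidence interval 0.13 to 0.41, adjusted *P* = 0.00339).

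Each of the 6 membrane glycoproteins was higher, with a median log2 fold change of 0.83. *Cd68* (ENSMUSG00000018774, chr11:69664213-69666153), a scavenger-type glycoprotein used as a marker of phagocytic microglia and macrophages, had 7.56, 12 and 13.3 CPM in NT + Sham and 29.9, 60.7 and 85.7 CPM in NT + Stroke. Even the lowest stroke mouse, library 4, was well above the highest sham mouse. The fitted log2 fold change came to 2.29 (95% confidence interval 1.74 to 2.84, adjusted *P* = 4.23e-05), the largest change apart from *Atp6v0d2*. *Laptm5* (ENSMUSG00000028581, chr4:130913125-130936141), a membrane protein of blood-derived and microglial cells, had 41.9, 50.3 and 56.0 CPM in NT + Sham and 85.0, 119 and 157 CPM in NT + Stroke, without overlap. The log2 fold change was 1.19 (95% confidence interval 0.89 to 1.49, adjusted *P* = 1.97e-05).
*Cd63* (ENSMUSG00000025351, chr10:128900989-128912822), a tetraspanin of late endosomes, had 59.3, 73.0 and 79.3 CPM in NT + Sham and 127, 152 and 200 CPM in NT + Stroke, and its groups were apart. On the log2 scale the difference was 1.13 (95% confidence interval 0.90 to 1.35, adjusted *P* = 9.67e-07). The major structural proteins of the lysosomal membrane had smaller values. *Lamp2* rose by 0.53 and *Lamp1* by 0.38 on the log2 scale, and *Scarb2*, the receptor that carries glucocerebrosidase to lysosomes, by 0.26. In *Lamp1* the values were 262, 272 and 284 CPM in NT + Sham and 307, 362 and 393 CPM in NT + Stroke, and the log2 fold change was 0.38 (95% confidence interval 0.24 to 0.52, adjusted *P* = 2.23e-04).

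In the last role group *Grn*, the precursor of granulins that is cut within lysosomes, rose by a log2 fold change of 0.80 without overlap. *Atp6v0d2* (ENSMUSG00000028238, chr4:19876841-19922605) had 0 to 2 counts in each NT + Sham library and 32 to 284 counts in each NT + Stroke library. Its values were 0, 0.0234 and 0.109 CPM in NT + Sham and 1.28, 11 and 13.4 CPM in NT + Stroke, with stroke library 4 the lowest. Against a floor of 3 counts per NT + Sham library it was at least 58.1-fold higher in NT + Stroke (adjusted *P* = 3.74e-05). *Mcoln1*, the calcium channel of the lysosomal membrane, was at -0.02 on the log2 scale (95% confidence interval -0.15 to 0.10, adjusted *P* = 0.801). *Tfeb* had 0.36 and did not pass (adjusted *P* = 0.0655). Among members with a promoter window, 2 of the 4 with TCACGTGA and 25 of the 36 without it were higher, and for CACGTG the counts were 6 of 12 with it and 21 of 28 without it.

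**Figure D2:**
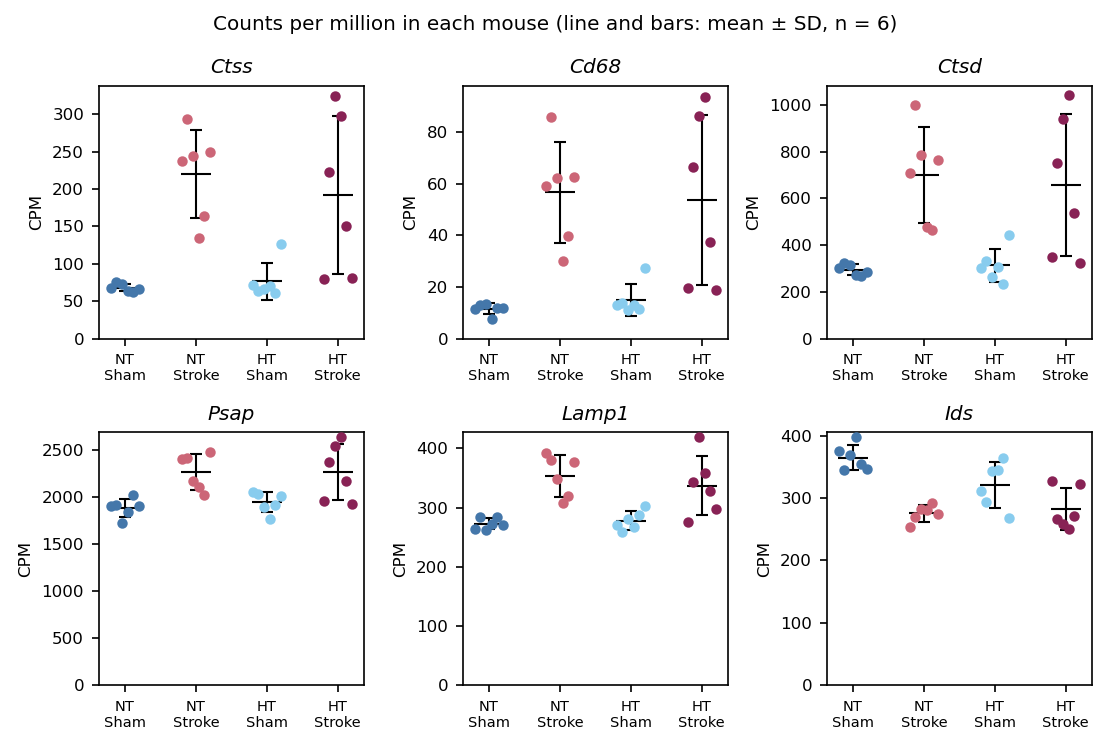
CPM of 6 genes (linear axes from 0) in each mouse of the 4 groups, with the mean ± SD (n = 6) in black. *Ctss*, *Cd68*, *Ctsd*, *Psap* and *Lamp1* are higher in NT + Stroke than in NT + Sham, *Ids* is lower, and the HT + Stroke mice spread from the sham range to the highest values plotted for *Ctss*, *Cd68* and *Ctsd*.

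The stroke mice differed among themselves in the same way across members. NT + Stroke library 2 was the highest of its group in 29 of the 45 members, and libraries 4 and 5 were among the 2 lowest in 32 and 36. The median over the members of log2(CPM + 1) minus the NT + Sham mean was 0.62 in library 2 and 0.29 and 0.31 in libraries 4 and 5, while in the NT + Sham mice it lay between -0.02 and 0.02.

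Markers of other cells moved in the same comparison. Of 10 microglial markers 9 were higher, and their summed level was 360 to 413 CPM in NT + Sham and 617 to 1190 CPM in NT + Stroke. Of 9 markers of border and infiltrating macrophages 7 were higher, with sums of 13.0 to 18 CPM and 108 to 550 CPM. The list held *Mrc1*, *Cd163*, *Lyve1*, *Ms4a7*, *Pf4*, *Ccr2*, *Cd5l*, *Gpnmb* and *Lgals3*. Its sum weighs the most abundant of these genes most and is not a count of macrophages. The macrophage marker *Cd5l* had 0 to 7 counts in the NT + Sham libraries and 68 to 1358 in NT + Stroke. Astrocyte markers were higher in 5 of 6, fibroblast markers in 4 of 4, and neuronal markers lower in 4 of 6, with sums of 7430 to 8030 CPM in NT + Sham and 5670 to 6670 CPM in NT + Stroke. Cortical markers were lower in 6 of 6, at a median log2 fold change of -0.66, olfactory bulb markers higher in 2 of 4, oligodendrocyte markers in 2 of 6 and endothelial markers in 1 of 5, and no striatal or blood marker of 5 each was called. NT + Stroke library 2, the highest in most lysosomal genes, also had the highest sums of microglial and macrophage markers, and library 4 the lowest of macrophage markers. The part of these markers in the lysosomal changes was not tested.

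**Figure D3:**
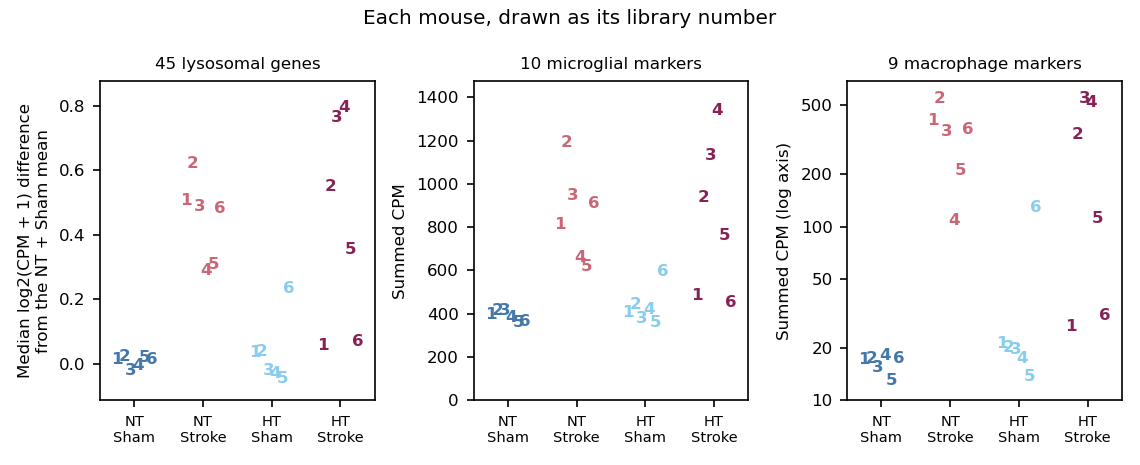
Each number is 1 mouse, drawn as its library number, in the 4 groups. The left panel gives the median over the 45 lysosomal genes of log2(CPM + 1) minus the NT + Sham mean, the middle panel the summed CPM of 10 microglial markers and the right panel that of 9 macrophage markers on a log axis. HT + Stroke libraries 1 and 6 lie near the sham mice in all 3 panels and HT + Sham library 6 lies above the rest of its group.

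The same question was put in hypertensive mice. No library is shared by these comparisons. In HT + Stroke vs HT + Sham, 44 members passed the low-count filter, all but *Atp6v0d2*, and 0 were higher and 0 lower at an adjusted *P* under 0.05 in edgeR. Of all 16741 genes, 0.544% were higher and 0.102% lower. At an unadjusted *P* under 0.05, 27 members were higher and 0 lower, where 10.5% and 6.50% of all genes were. DESeq2 called 21 members higher and 0 lower, and 3.95% and 1.37% of all genes. The median log2 fold change of the members was 0.44, against 0.00 for all genes tested, and 38 of 44 were positive, against 50.1% of all genes. No member had groups that did not overlap, where 0.579% and 0.567% of all genes lay wholly above and wholly below. Of the 31 members higher in NT + Stroke, 30 were tested here and 29 had a positive log2 fold change (*Galc* did not, at -0.01), against 87.0% of all genes that were higher in NT + Stroke and tested here. Of these 30 members 28 had a smaller log2 fold change in HT than in NT mice, as did 2145 of the 2369 such genes over the whole table, which were picked for being high in NT mice. That count was made only with every library kept. Without the HT libraries that stood apart, a choice made after their values were seen, the members' median in HT mice was 0.60, against 0.42 in NT mice.

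The single values spread widely. *Cd68* had 11, 12.9 and 27.2 CPM in HT + Sham and 18.7, 52.0 and 93.5 CPM in HT + Stroke. This gave a log2 fold change of 1.86 (95% confidence interval 0.84 to 2.89, adjusted *P* = 0.0878). *Ctss* had 61.4, 68.3 and 126 CPM in HT + Sham and 79.8, 186 and 324 CPM in HT + Stroke. In both genes 4 of the 6 stroke mice were above all sham mice, and libraries 1 and 6 were not. Stroke minus sham on the log2 scale was 1.34 (95% confidence interval 0.49 to 2.19, adjusted *P* = 0.117).
For *Ctsd* the values were 234, 303 and 443 CPM in HT + Sham and 324, 644 and 1040 CPM in HT + Stroke, with the same 2 libraries lowest. The fitted log2 fold change came to 1.08 (95% confidence interval 0.42 to 1.75, adjusted *P* = 0.105). *Ids* had 268, 328 and 365 CPM in HT + Sham and 250, 269 and 328 CPM in HT + Stroke, and its groups overlapped. The log2 fold change was -0.17 (95% confidence interval -0.38 to 0.04, adjusted *P* = 0.365). The smallest *P* values, named after they were seen, belonged to *Tfeb*, with 11.7, 13.6 and 16.8 CPM in HT + Sham and 16.3, 18.4 and 26.1 CPM in HT + Stroke. Only 1 of its stroke mice lay within the sham range, and the log2 fold change was 0.53 (95% confidence interval 0.27 to 0.79, adjusted *P* = 0.0516). *Man2b1* and *Fuca1* followed at log2 fold changes of 0.60 and 0.41 (adjusted *P* = 0.0636 and 0.0673). *Atp6v0d2*, left out by the filter, had 0, 0 and 3.51 CPM in HT + Sham and 0.284, 5.22 and 19.9 CPM in HT + Stroke, where HT + Sham library 6 held 70 of the 71 counts of its group.

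**Figure D4:**
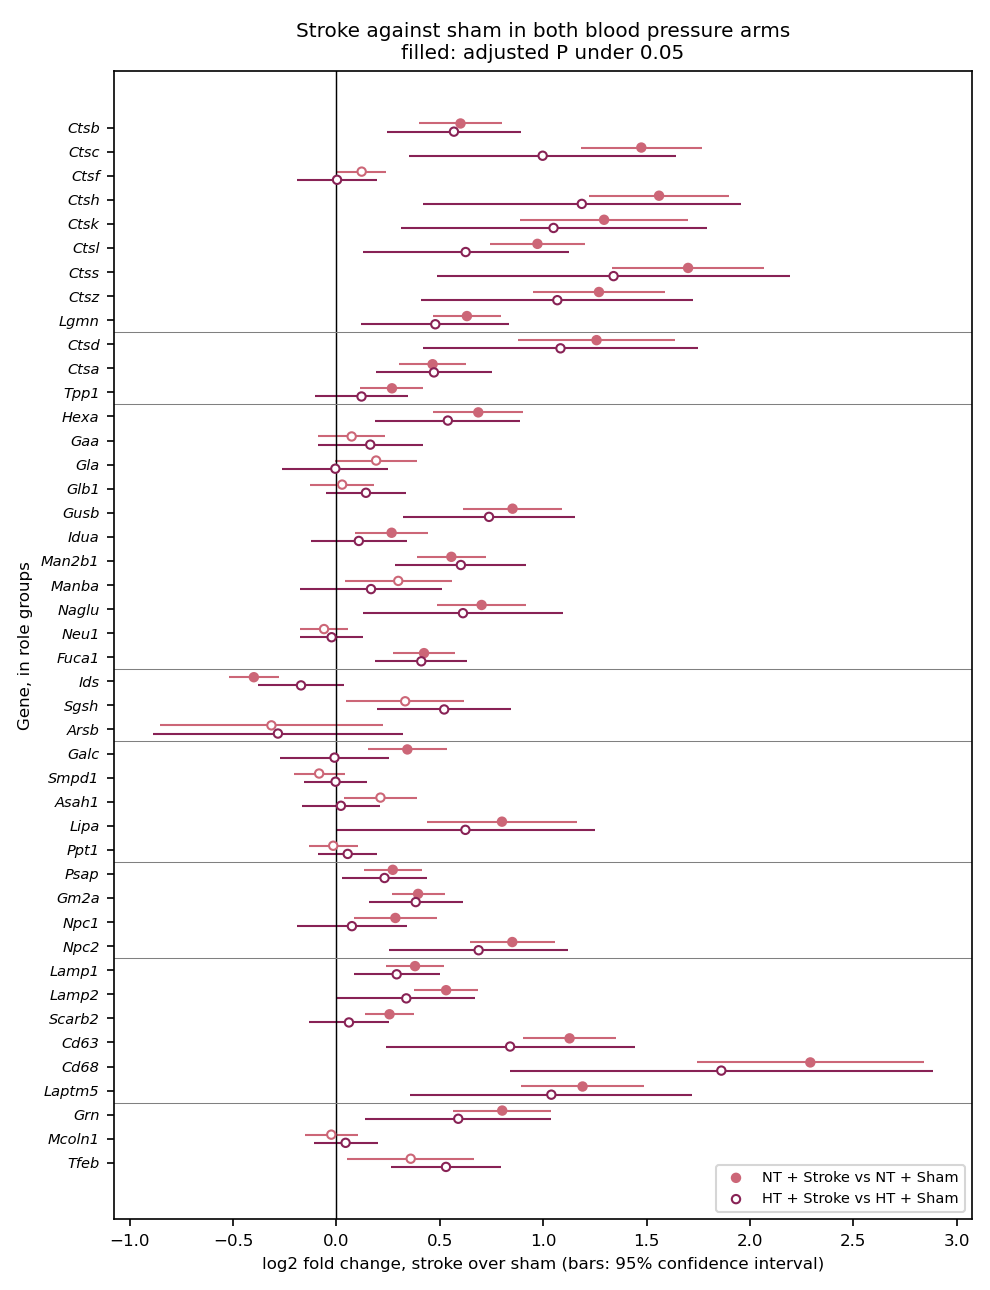
Log2 fold change (horizontal axis) of stroke over sham for 44 genes in NT and HT mice, with 95% confidence intervals. Filled points passed an adjusted *P* under 0.05. *Atp6v0d2* is left out because NT + Sham was at the floor. The HT points lie near the NT points for most genes, with longer bars, and none is filled.

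The low and high values within HT + Stroke came from the same libraries across most members. Libraries 1 and 6 were among the 2 lowest of their group in 39 and 34 of the 45 members, and libraries 3 and 4 among the 2 highest in 35 and 36. The median member difference from the NT + Sham mean was 0.06 and 0.07 in libraries 1 and 6, 0.35 in library 5 and 0.55 to 0.80 in libraries 2, 3 and 4. In HT + Sham, library 6 was the highest in 26 of 45 members, with a median of 0.24, and the other 5 lay between -0.04 and 0.04. The sum of macrophage markers was 26.7 and 30.7 CPM in HT + Stroke libraries 1 and 6, 112 to 550 CPM in the other 4, 129 CPM in HT + Sham library 6 and 13.6 to 21.2 CPM in the other 5. The sums of microglial markers ran from 451 to 1340 CPM in HT + Stroke and from 358 to 597 CPM in HT + Sham. Oligodendrocyte markers were the 1 marker list with calls in HT + Stroke vs HT + Sham, 3 of 6 higher at a median log2 fold change of 0.51, while the uncalled medians were 1.40 for striatal, -0.99 for olfactory bulb, -0.24 for cortical and 1.93 for fibroblast markers. The part of these markers in the lysosomal values was not tested. Without HT + Stroke library 1, 18 members were higher, with 2.67% of all genes, and 12 were higher without library 6, with 1.57%. Leaving out HT + Sham library 6 or HT + Stroke library 5 gave 1 member each, with 0.730% and 0.948% of all genes higher, and leaving out any of the other 8 gave 0. With HT + Stroke libraries 1 and 6 and HT + Sham library 6 left out together, a choice made after their values were seen, 27 members were higher and 1 was lower, with a median log2 fold change of 0.60, and 6.81% of all genes were higher and 1.66% lower. These libraries were left out because of injury markers, which themselves differ after stroke, so that count describes the remaining libraries and not the groups.

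The effect of angiotensin II itself was asked in sham and in stroke mice. In HT + Sham vs NT + Sham, 0 of 44 members tested were higher or lower, and 0% of all genes were called in either direction. At an unadjusted *P* under 0.05, 0 members were higher and 1 lower, where 4.96% and 3.08% of all genes were, so the members did not exceed the background. DESeq2 called 0 members, and 0% of all genes higher and 0.00603% lower. The paper, using DESeq, does report differentially expressed genes for this comparison at an adjusted *P* under 0.05. Why the results differ was not tested. The median log2 fold change was 0.05, or 0.00 without HT + Sham library 6. *Ids* had the smallest *P*, with 345, 362 and 398 CPM (lowest, median and highest) in NT + Sham and 268, 328 and 365 CPM in HT + Sham, and the groups overlapped. Its log2 fold change was -0.18 (95% confidence interval -0.35 to -0.01, adjusted *P* = 0.552). *Ctsc* and *Grn* followed at 0.25 and 0.16 (adjusted *P* = 0.721 and 0.730). The intervals for *Ctsc*, -0.06 to 0.55, and *Grn*, -0.05 to 0.36, left out changes as large as those after stroke in NT mice.

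In HT + Stroke vs NT + Stroke, 0 of 45 members were higher or lower, and again 0% of all genes were called. At an unadjusted *P* under 0.05, 0 were higher and 2 lower, where 3.35% and 3.89% of all genes were, a share near the background. DESeq2 called 0 members and 0% of all genes. The median log2 fold change was -0.06, and 0.09 without HT + Stroke libraries 1 and 6. *Galc* had the smallest *P*, with 22.9, 25.1 and 28.2 CPM in NT + Stroke and 16.1, 18.9 and 25.9 CPM in HT + Stroke as lowest, median and highest. In 5 of 6 HT + Stroke mice it lay below all NT + Stroke mice, at a log2 fold change of -0.34 (95% confidence interval -0.56 to -0.11, adjusted *P* = 0.654). *Asah1* and *Scarb2* were next, at -0.23 and -0.16 (adjusted *P* = 0.654 for both).

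Whether the stroke effect differed between HT and NT mice was tested as an interaction over all 24 libraries. It called 0 of 45 members and 0% of all genes in either direction, with 1 member higher and 1 lower at an unadjusted *P* under 0.05, where 4.54% and 5.88% of all genes were, again no more than the background. DESeq2 called 0 members, and 0.0227% of all genes higher and 0.102% lower. The members' median was -0.15, against 0.00 for all genes, and turned to 0.08 with the 3 libraries above left out. *Galc* (-0.36, 95% confidence interval -0.69 to -0.03), *Ids* (0.22, -0.02 to 0.46) and *Scarb2* (-0.20, -0.43 to 0.02) had the smallest *P*, at adjusted *P* of 0.428, 0.479 and 0.489. The intervals were set with the degrees of freedom of a pairwise fit and are wider than the interaction test implies. That of *Ids* thus spans 0, although *Ids* was the member higher at an unadjusted *P* under 0.05. These comparisons share groups with those before, so their values are not independent of them.

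The rest of the pathway was described with a second list. Of 101 other lysosomal and autophagy genes, 100 were tested in NT + Stroke vs NT + Sham, and 22 were higher and 16 lower. Over all genes tested 14.4% were higher and 11.5% lower. The median log2 fold change of the list was -0.01. Without scaling beyond library size the counts of the list were 29 and 9, against 17.7% and 6.06% of all genes. Of 18 further hydrolases 10 were higher and 1 lower. *Acp5*, tartrate-resistant acid phosphatase, had 0.107, 0.458 and 0.755 CPM (lowest, median and highest) in NT + Sham and 0.921, 4.76 and 6.68 CPM in NT + Stroke, at a log2 fold change of 3.32 (adjusted *P* = 2.04e-04). Cathepsin inhibitors were higher in 3 of 4. Among them *Cst7*, cystatin F, had 0, 0.0971 and 0.435 CPM in NT + Sham and 4.09, 8.64 and 13.2 CPM in NT + Stroke, without overlap (adjusted *P* = 2.54e-06). It had 0 to 8 counts per NT + Sham library, too few for a stable fold.

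Of 19 subunits and accessory proteins of the proton pump that acidifies lysosomes and synaptic vesicles, 10 were lower and 2 higher. *Tcirg1*, the membrane subunit also known from osteoclasts, had 16, 18.6 and 19.7 CPM in NT + Sham and 34, 46.6 and 54.2 CPM in NT + Stroke, at a log2 fold change of 1.30 (adjusted *P* = 2.99e-07). The 3 called genes of the list with the lowest log2 fold change were all subunits of the cytosolic part of the pump. *Atp6v1b2* had 594, 610 and 647 CPM in NT + Sham and 457, 499 and 504 CPM in NT + Stroke, without overlap, at a log2 fold change of -0.32 (adjusted *P* = 1.01e-04). *Atp6v1a* and *Atp6v1c1* had -0.32 and -0.31 (adjusted *P* = 8.59e-04 and 2.94e-04). Without scaling beyond library size 9 of the 19 were lower and 2 higher. Of 20 autophagy genes 1 was lower and 0 higher, and without such scaling 0 and 0. In HT + Stroke vs HT + Sham 0 of the 100 tested were called by edgeR, 20 were higher and 6 lower at an unadjusted *P* under 0.05, against the 10.5% and 6.50% of all genes given above, and DESeq2 called 2 higher and 2 lower, against 3.95% and 1.37%.

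**Figure D5:**
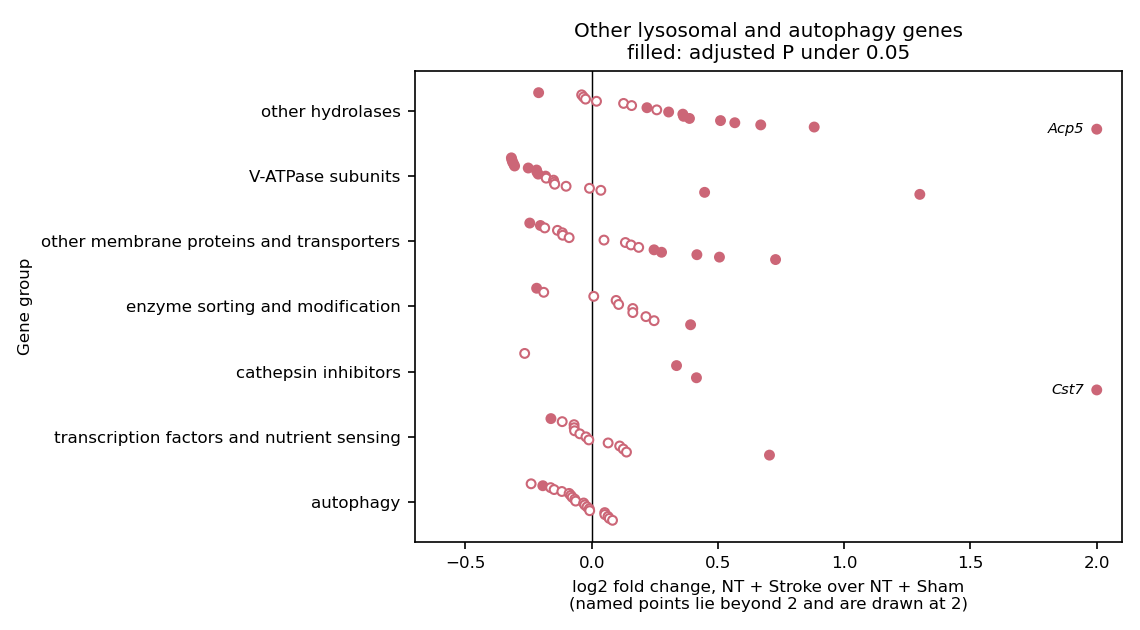
Log2 fold change of NT + Stroke over NT + Sham (horizontal axis) for the 100 other lysosomal and autophagy genes tested, in 7 gene groups. Filled points passed an adjusted *P* under 0.05. Most other hydrolases lie to the right of 0, with *Acp5* and *Cst7* drawn at the edge because they lie beyond it, and most V-ATPase (proton pump) subunits to the left.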

How the data were processed

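RNA sequencing libraries of 24 mouse brain sections in 4 groups of 6 were analysed. The authors mapped reads to the Ensembl mouse genome and counted them per gene, and the submitters' processing notes name featureCounts 1.5.0-p3 and DESeq2 1.20.0. The aligner, genome build and strandedness were not given in the sources used here. The deposited values used were raw counts and FPKM values per gene, and the authors' fold changes, *P*-values, 48 normalized count columns and 8 group mean columns were not used. The 4 tables were joined on gene identifier to 33981 genes, and library columns repeated between tables did not differ. Gene coordinates are those of the tables, and 33163 of 33960 matched GENCODE M21 (GRCm38), including 43 of 45 members (not *Ctsf* and *Npc1*). Of the members, 19 overlap another annotated gene, with which reads may be shared.

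Counts were filtered with edgeR 4.0.16 (filterByExpr, minimum count 10, minimum total 15), scaled by TMM and tested per comparison with the quasi-likelihood test in R 4.3.3, and *P*-values were adjusted across every gene tested by the Benjamini-Hochberg method (threshold 0.05). The interaction was fitted over all 24 libraries. Depth was 15922919 to 24865998 counts, and the floor of 3 counts covers counting error only. The scripts were tested on counts simulated with the means and spread of NT + Sham. That test does not cover the wider spread of other groups, such as HT + Stroke. Alternatives were other scalings and filters, DESeq2 1.42.0, limma 3.58.1 on log2(FPKM + 1) and log2(FPKM + 0.1), a fit of all 4 groups, and each library left out.

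All 45 members are named. Lowest, median and highest values are given for the 12 called with the largest log2 fold change in NT + Stroke vs NT + Sham, for those called lower and for the first of each role group, and 3 members with the smallest *P* are given in each other comparison. *Psap*, *Lamp1* and *Tfeb* were added after their values were seen. Of the second list the 3 highest and 3 lowest called are named. The members and lists were chosen with earlier results of these data known.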

Additional observations from a re-analysis of the deposited data

Results flagged for a closer look

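In each group of 6 libraries the highest and the lowest value of each member was compared with the rest of its group. In 14 of 180 groups 1 library lay far outside the others by Dixon's test, where chance flags about 1 in 20 groups, or 9.0 here. HT + Sham library 6 was the highest of its group in 5 of the 14. It had 126 CPM of *Ctss* (others 61.4 to 71.5), 27.2 CPM of *Cd68* (others 11 to 13.6), 26.6 CPM of *Ctsh* (others 11.8 to 16.7), 107 CPM of *Npc2* (others 72.2 to 83.0) and 3.51 CPM of *Atp6v0d2* (others 0 to 0.0617).

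HT + Stroke library 3 was apart in 4 genes, at 83.8 CPM of *Tpp1* (others 53.6 to 64.0) and 50.7 CPM of *Asah1* (others 34.3 to 40.3) as the highest, and at 115 CPM of *Smpd1* (others 133 to 141) and 96.9 CPM of *Mcoln1* (others 103 to 106) as the lowest. HT + Stroke library 5 was the highest for *Gla*, at 19.4 CPM (others 13.6 to 15.7). In NT + Sham, library 5 was low for *Hexa* (55.5 CPM, others 65.7 to 71.0) and library 4 for *Cd68* (7.56 CPM, others 11.5 to 13.3), while library 2 was high for *Glb1* (33.2 CPM, others 28.3 to 29.3) and library 1 for *Smpd1* (146 CPM, others 129 to 135).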

How the results depend on the processing

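In NT + Stroke vs NT + Sham, 30 to 37 members were higher and 1 was lower under each alternative run, and 30 to 33 were higher with 1 library left out. The members' median log2 fold change ran from 0.40 to 0.46 with 1 library left out. The call of *Npc1* was lost with all 4 groups in one fit (adjusted *P* = 0.072), without NT + Sham library 1 (0.0531) and without NT + Stroke library 5 (0.0508). Of the second list 16 genes were lower, 26 at an unadjusted *P* under 0.05 and 9 with no scaling beyond library size.

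In HT + Stroke vs HT + Sham the count of members called higher, 0, depended on the method. It was 27 at an unadjusted *P* under 0.05, 21 with DESeq2, 25 with all 4 groups in one fit (6.39% of all genes called in either direction) and 2 with all genes of at least 1 count (0.550%). With 1 library left out it ran from 0 to 18 (18 without HT + Stroke library 1, 12 without library 6). With the 3 libraries that stood apart left out, a choice made after seeing the data, 27 were higher and 1 lower. Of the second list, the higher and lower counts, both 0, became 20 and 6 unadjusted, 2 and 2 with DESeq2, and 4 and 3 with all 4 groups. The higher count ran from 0 to 1 with 1 library left out and was 12 without the 3 libraries. The cause was not tested.

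At an unadjusted *P* under 0.05, 1 member was lower in HT + Sham vs NT + Sham, 2 were lower in HT + Stroke vs NT + Stroke, and 1 was higher and 1 lower in the interaction. With 1 library left out the medians ran from 0.36 to 0.54 in HT + Stroke vs HT + Sham, from 0.00 to 0.06 in HT + Sham vs NT + Sham, from -0.17 to 0.02 in HT + Stroke vs NT + Stroke, where they were above 0 without NT + Stroke library 2 or HT + Stroke library 1 or 6, and from -0.25 to -0.06 in the interaction. No paired analysis was possible because the labels give no number that ties mice of different groups together. Genes at 0 to 2 counts, such as *Atp6v0d2* in NT + Sham, allow only a lower bound.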
